A study of Mus musculus with 2 samples.

Results

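The respiratory chain of the inner mitochondrial membrane passes electrons from NADH and succinate to oxygen. Complex I (NADH dehydrogenase) takes electrons from NADH, complex III (cytochrome bc1) hands them to cytochrome c, and complex IV (cytochrome c oxidase) reduces oxygen. A few core subunits are encoded by mitochondrial DNA, and all other subunits come from nuclear genes spread over the chromosomes. Several complex IV subunits exist as a widely expressed form and as a second form used mainly in muscle, lung or testis, so that this gene family holds housekeeping genes beside tissue-restricted ones. Factors named in the control of the housekeeping members include NRF1 and NRF2 (an ETS factor, GABP), YY1, SP1 and the estrogen-related receptors (ERRs).

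The genes examined here were the protein-coding genes on chromosomes 1 to 19 whose names begin Nduf followed by a, b, c, s or v and a digit (complex I), Uqcr (complex III), or Cox followed by 4, 5, 6, 7 or 8 (complex IV). The rule used names and positions only and gave 60 of 20807 protein-coding genes, 35 for complex I, 8 for complex III and 17 for complex IV. Among the subunit genes it leaves out are those on the X chromosome and Cyc1, a complex III subunit with another name. Ndufa4 and its relative Ndufa4l2 were counted with complex I by their names, although the Ndufa4 product is now assigned to complex IV.

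Chromatin accessibility was measured by ATAC-seq, in which the Tn5 transposase cuts open DNA, in mouse embryonic stem cells (mESCs) of the EHMT2-dTAG-mcherry line. The cells had a BL6/129 hybrid background (parental KH2 line, an F1 of C57BL/6J and 129S1) and were kept in medium with FBS and LIF. In these cells EHMT2, a histone H3K9 methyltransferase, carries a dTAG that allows its degradation, and all libraries came from cells given only the solvent DMSO for 24 h, with 50000 cells each. The 2 independent clones were merged by the authors into 1 peak list of 116782 peaks, so the data hold no comparison between treatments and no spread between clones.

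A gene was counted as having a peak when a peak overlapped the 500 bp on either side of its annotated start. The height of a peak is given as the authors' fold enrichment, the fragment pileup at the summit plus 1 over the local background plus 1. It is followed by the number of fragments at the summit, with an exact 95% Poisson interval that reflects the counting error of the fragments and not how the clones differ. Over the whole list the median fold enrichment was 3.98 and the median summit held 9 fragments, and library totals were not analysed here. The starts of Pou5f1, Nanog and Sox2, which define embryonic stem cells, lay in windows with a peak, but so did 7 of 8 starts of fibroblast and lineage marker genes, Alb being the exception. The fibroblast genes Col1a1, Thy1 and Pdgfrb had fold enrichments of 6.42, 5.45 and 5.33, with 18, 11 and 12 fragments. The fold enrichments of Pou5f1, Nanog and Sox2 were lower, at 2.83, 4.12 and 5.22, with 17, 40 and 42 fragments. By fragments the order differed, since Nanog and Sox2 held more than each fibroblast gene. Pou5f1 held fewer than Col1a1 but more than Thy1 and Pdgfrb. By the study's methods the cells grew on feeder mouse embryonic fibroblasts, and the part of such cells in the peaks was not tested.

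Of the 60 genes, 55 (91.7%) had a peak at the start, against 65.5% of all 20807 protein-coding starts. All 8 complex III genes had a peak, as did 34 of 35 complex I genes and 13 of 17 complex IV genes. The complex I gene without a peak was Ndufa4l2, which was counted there by its name. When only peaks with a −log10 q-value of 10 or more were kept, the count was 44 of 60 (73.3%), against 48.0% of all starts, with 29 genes of complex I, 7 of complex III and 8 of complex IV. The 5 genes without a peak were Ndufa4l2, Cox6a2, Cox7b2 and Cox8b, which are all tissue-restricted or hypoxia-induced forms, and Cox7a2l. Each of the 55 genes had 1 peak in its window, and no peak served more than 1 of them.

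Where a peak was present, its height was not far from that at other promoters. The median fold enrichment over the 55 genes was 9.60, with quartiles of 6.91 and 11.5 and a highest value of 20.7, and over all 13620 starts with a peak it was 8.41, with quartiles of 5.86 and 11.4. The median summit held 34 fragments at these genes and 32 at all starts with a peak. Among the complexes, the median fold enrichment was 9.57 for complex I, 10.8 for complex III and 8.68 for complex IV, and the median summit held 34, 44.5 and 25 fragments. The range of complex III, from 5.43 to 14.6, lay within those of the other two, as the plot by gene shows.

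**Figure D1:**
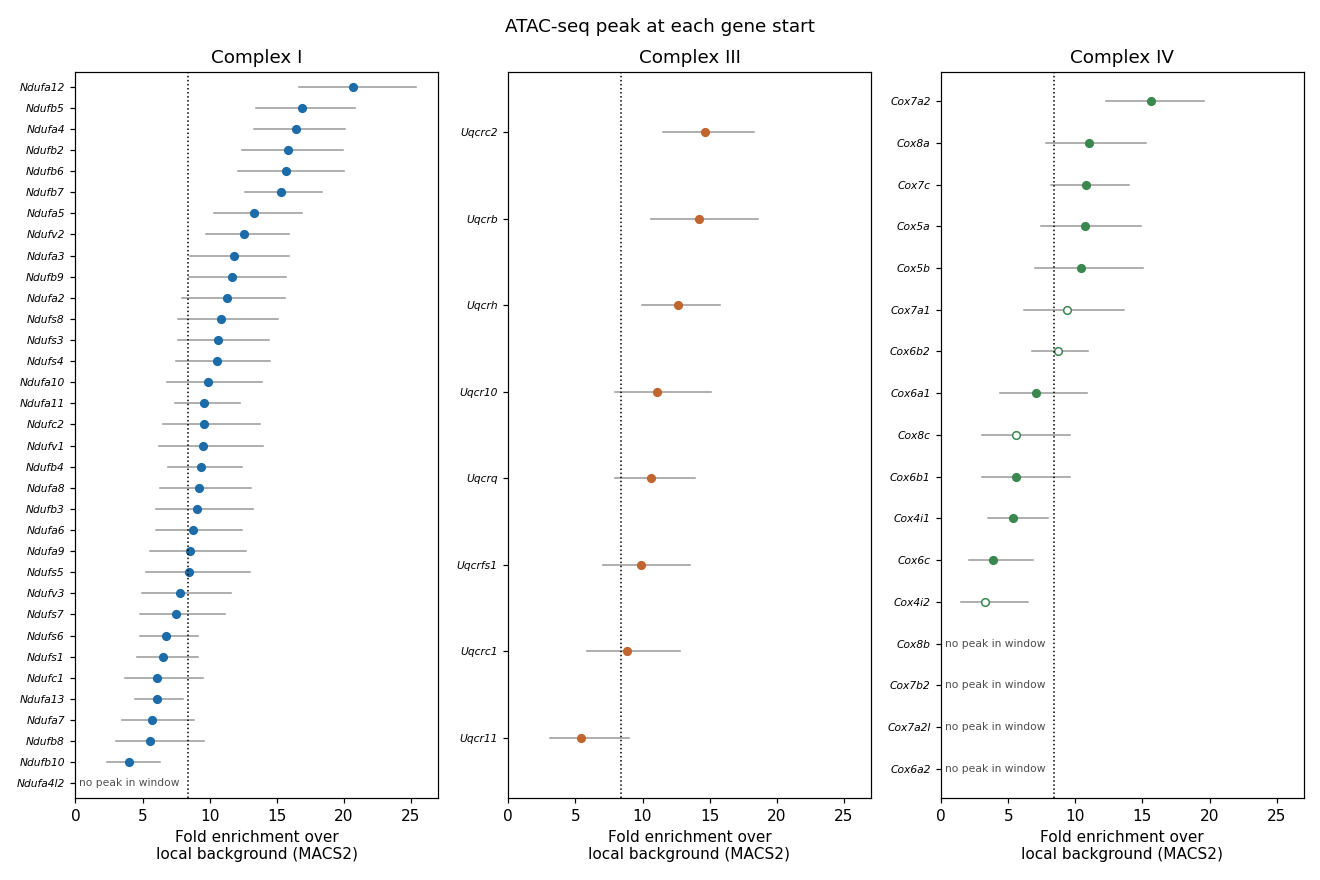
Fold enrichment over local background (x axis) of the peak at each gene start, by complex (sorted rows). Points are the merged value of both clones, bars the 95% counting interval, open points tissue-restricted isoforms, and the dotted line the median of all protein-coding starts with a peak (8.41). The highest value is 20.7 (Ndufa12), and 5 genes have no peak.

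Complex I held the highest peak. Ndufa12, an accessory subunit of the matrix arm, reached a fold enrichment of 20.7 with 90 fragments (72.4 to 111), above 99.7% of all starts with a peak. Its peak lay at chr10:94198677-94199579 (mm10) and covered the annotated start, on the + strand. Ndufb5, an accessory subunit of the membrane arm, followed with 16.9 and 83 fragments (66.1 to 103), and Ndufa4 with 16.4 and 94 fragments (76.0 to 115). The counting intervals of these 3 genes overlapped, so their order is not resolved.

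Low peaks were also found in complex I. Ndufb10, an accessory subunit of the membrane arm, had 3.97 and 16 fragments (9.15 to 26.0) with its summit 67 bp upstream of the start. Ndufb8 had 5.55 and 11 fragments (5.49 to 19.7). Both peaks covered the annotated start itself.

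The core subunits of complex I carry the flavin, the iron-sulphur clusters and the quinone site. Of those described here, Ndufv2, an iron-sulphur subunit, was highest at 12.5 with 66 fragments (51.0 to 84.0). Ndufs8 had 10.9 with 34 fragments and Ndufs3 had 10.6 with 39 fragments. Ndufv1, which binds NADH and the flavin, had 9.54 with 24 fragments, and Ndufs7 had 7.47 with 22 fragments. Ndufs1, the largest iron-sulphur subunit, had 6.54 with 33 fragments. The core genes described here ranged from 6.54 (Ndufs1) to 12.5 (Ndufv2). By name, the medians were 11.7 for the 9 Ndufb genes, 9.75 for the 12 Ndufa genes with a peak, 7.97 for the 8 Ndufs genes, 9.54 for the 3 Ndufv genes and 7.84 for the 2 Ndufc genes.

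In complex III, Uqcrc2, a core protein of the matrix side, had the highest peak at 14.6 with 73 fragments (57.2 to 91.8). Uqcrb, a small subunit near the quinone site, had 14.2 with 51 fragments (38.0 to 67.1), and Uqcrh, the hinge protein that contacts cytochrome c1, had 12.6 with 74 fragments (58.1 to 92.9). The Uqcrh peak was also the widest of all 55 at 1905 bp. Uqcrfs1, the Rieske iron-sulphur protein, had 9.90 with 37 fragments (26.1 to 51.0), and Uqcrc1, the other core protein, had 8.82 with 26 fragments (17.0 to 38.1). Uqcr11 was lowest at 5.43 with 13 fragments (6.92 to 22.2). Only Uqcr11 of this complex fell below a −log10 q-value of 10.

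In complex IV, Cox7a2, the widely expressed form of subunit VIIa, had the highest peak at 15.6 with 74 fragments (58.1 to 92.9), and its summit lay 30 bp upstream of the start. Cox8a had 11.0 with 35 fragments (24.4 to 48.7) and Cox7c had 10.8 with 56 fragments (42.3 to 72.7). Cox5a and Cox5b, both matrix-side subunits without a second isoform, had 10.7 with 33 fragments and 10.4 with 27 fragments. At the low end, Cox6c had 3.87 with 10 fragments (4.80 to 18.4) although it is a widely expressed subunit. Cox4i1, the main form of the largest nuclear subunit, had only 5.38 with 23 fragments (14.6 to 34.5). Low peaks in complex IV were thus found at widely expressed as well as restricted genes.

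The promoters of the highest gene in each complex that the RefSeq promoter table holds, and of Ndufb10, the lowest such gene, are shown. Uqcrc2 and Uqcrb had higher peaks than Uqcrh, and Cox6c and Cox4i2 lower peaks than Ndufb10, but they are not in that table. RefSeq promoters run from 250 bases before to 50 bases after the RefSeq start (GRCm38.p6, the mm10 coordinates), read 5′ to 3′ along the gene. Capitals mark the letters of NRF1 (GCGCANGCG), ETS (CCGGAAGT), YY1 (AAGATGGCG), SP1 (GGGCGG) or ERR (TCAAGGTCA) on either strand. They lie at chr10:94198785-94199084 (+ strand) for Ndufa12, chr4:116075021-116075320 (− strand) for Uqcrh, chr9:79759804-79760103 (− strand) for Cox7a2 and chr17:24724374-24724673 (− strand) for Ndufb10.
Ndufa12: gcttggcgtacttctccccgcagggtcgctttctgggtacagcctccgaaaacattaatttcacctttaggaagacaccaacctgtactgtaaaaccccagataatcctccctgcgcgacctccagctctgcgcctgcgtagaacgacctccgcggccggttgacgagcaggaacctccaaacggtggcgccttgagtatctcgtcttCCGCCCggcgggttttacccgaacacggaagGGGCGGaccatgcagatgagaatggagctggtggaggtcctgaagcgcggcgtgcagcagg
Uqcrh: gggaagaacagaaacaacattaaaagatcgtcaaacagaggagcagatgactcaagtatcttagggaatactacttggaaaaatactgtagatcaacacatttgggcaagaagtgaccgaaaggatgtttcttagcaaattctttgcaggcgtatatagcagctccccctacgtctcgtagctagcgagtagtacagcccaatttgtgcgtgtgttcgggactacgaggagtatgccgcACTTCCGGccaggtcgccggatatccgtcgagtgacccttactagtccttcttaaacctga
Cox7a2: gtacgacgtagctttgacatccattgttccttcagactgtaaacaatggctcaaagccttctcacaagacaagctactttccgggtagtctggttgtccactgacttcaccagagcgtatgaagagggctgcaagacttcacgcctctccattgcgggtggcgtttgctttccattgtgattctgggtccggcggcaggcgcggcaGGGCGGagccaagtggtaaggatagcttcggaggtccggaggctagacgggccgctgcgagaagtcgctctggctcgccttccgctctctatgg
Ndufb10: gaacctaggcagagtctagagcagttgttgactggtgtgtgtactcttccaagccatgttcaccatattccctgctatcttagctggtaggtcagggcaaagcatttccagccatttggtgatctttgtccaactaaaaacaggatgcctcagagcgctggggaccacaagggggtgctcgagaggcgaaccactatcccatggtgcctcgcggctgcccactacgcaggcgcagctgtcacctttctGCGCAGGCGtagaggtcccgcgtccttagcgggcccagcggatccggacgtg
In the Ndufa12 promoter, SP1 letters began at positions −42 and −11 from the RefSeq start, and in Cox7a2 at −44. Uqcrh held ETS letters at −11, and Ndufb10, the gene with the low peak, held NRF1 letters at −2. Each match is a match of letters and no measured binding site.

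The tissue-restricted forms and their widely expressed partners are described side by side, with no test between them. Of 8 such forms, 4 had a peak, and 2 had one under the stricter limit of 10 for the −log10 q-value, against 65.5% and 48.0% of all starts. Of the 6 partners Cox4i1, Cox6a1, Cox6b1, Cox7a2, Cox8a and Ndufa4, all had a peak and 4 passed the stricter limit. The lists do not match one to one, since Cox7b2 has no partner among them and Cox8a is the partner of both Cox8b and Cox8c. Of the 52 genes that are not restricted, 51 had a peak. Assignment to the restricted list came from general knowledge of these isoforms and not from these cells. The list was, however, made with earlier results of these data known, and no RNA was measured in these libraries.

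For subunit VIII, Cox8a had the peak given above, Cox8b, the form of heart and skeletal muscle, had none, and its nearest peak was 2627 bp from the start. Cox8c, the testis form, had a peak of 5.55 with 11 fragments (5.49 to 19.7) whose summit lay 22 bp upstream of the start. For subunit VIa, Cox6a1 had 7.09 with 19 fragments (11.4 to 29.7), while Cox6a2, the heart and muscle form, had its nearest peak 25477 bp away. For subunit VIb, Cox6b1 had 5.55 with 11 fragments, and Cox6b2, the testis form, had a higher value of 8.68 with 69 fragments (53.7 to 87.3). The summit of the Cox6b2 peak, however, lay 741 bp downstream of the start, outside the window. The counting intervals of the fold enrichment of Cox6b1 (up to 9.56) and Cox6b2 (from 6.78) overlapped, so their order is not resolved.

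For subunit VIIa, Cox7a2 was at 15.6, and Cox7a1, the heart and muscle form, had a clear peak of 9.35 with 25 fragments (16.2 to 36.9) and a −log10 q-value of 17.9, its summit 26 bp downstream of the start. Cox7a1 was the restricted form with the highest peak and had its summit close to the start. Cox7a2l, whose product joins complexes III and IV in supercomplexes, had no peak at the gene start. Its only annotated protein-coding transcript start, 3000 bp downstream of that gene start, lay in a peak of 15.1 with 61 fragments (46.7 to 78.4). Cox7b2, a testis form, had its nearest peak 2168 bp away. For subunit IV, Cox4i1 stood at 5.38, and Cox4i2, the lung and hypoxia form, had the peak with fewest fragments of all 55, at 3.24 with 6 fragments (2.2 to 13.1) and a −log10 q-value of 1.66. That peak ended 151 bp upstream of the start. Ndufa4l2, a hypoxia-induced relative of Ndufa4, had its nearest peak 1372 bp away, at 2.79 with 16 fragments.

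The promoters of Cox8a, Cox8b and Cox7a1 are printed because the first 2 form a pair with and without a peak and the third is the muscle form with one. They were chosen with these values in view, and lie at chr19:7217567-7217866 (− strand), chr7:140900397-140900696 (− strand) and chr7:30183921-30184220 (+ strand), with capitals as above.
Cox8a: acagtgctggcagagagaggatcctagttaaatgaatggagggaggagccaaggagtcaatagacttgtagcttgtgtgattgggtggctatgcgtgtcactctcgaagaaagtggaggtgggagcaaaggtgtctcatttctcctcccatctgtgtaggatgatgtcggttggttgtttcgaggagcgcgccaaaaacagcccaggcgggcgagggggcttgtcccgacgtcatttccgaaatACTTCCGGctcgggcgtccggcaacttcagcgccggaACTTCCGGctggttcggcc
Cox8b: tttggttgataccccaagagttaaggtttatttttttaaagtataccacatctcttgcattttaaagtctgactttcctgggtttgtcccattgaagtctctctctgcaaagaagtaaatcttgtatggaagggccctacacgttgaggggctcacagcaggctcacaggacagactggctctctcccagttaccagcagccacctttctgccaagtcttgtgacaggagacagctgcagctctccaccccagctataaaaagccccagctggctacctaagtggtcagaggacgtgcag
Cox7a1: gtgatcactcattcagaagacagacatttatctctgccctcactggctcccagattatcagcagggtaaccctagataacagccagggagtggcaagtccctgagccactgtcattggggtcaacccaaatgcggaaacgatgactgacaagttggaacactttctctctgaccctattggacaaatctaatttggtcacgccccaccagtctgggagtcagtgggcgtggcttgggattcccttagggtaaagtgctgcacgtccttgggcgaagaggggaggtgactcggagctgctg
Cox8a held ETS letters at positions −6 and 31 from its start, and the other two promoters held none of these 5 motifs. A lack of these letters says nothing about which factors bind there.

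The genes without a peak had few CpG dinucleotides around the start. Over the 500 bp on either side of each start, the median ratio of observed to expected CpG was 0.710 for the 60 genes and 0.568 for all protein-coding starts, and the median GC content was 55.8% and 55.0%. All 50 genes with a ratio of at least 0.5 had a peak, as did 96.3% of all starts in that range. Between 0.3 and 0.5, 4 of 5 genes (among them Cox4i2, Cox6b2 and Cox8c, but not Cox7b2) had one, against 65.9% of all starts. Below 0.3, only Cox7a1 of 5 genes had one, against 13.2% of all starts, and the others were Ndufa4l2, Cox6a2, Cox7a2l and Cox8b. For Cox7a2l the ratio is that around the gene start, 3000 bp upstream of its protein-coding transcript start. Of the 8 restricted forms, none reached a ratio of 0.5 at the gene starts used here.

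Among the 55 genes with a peak, the correlation of height with CpG density was weak. Spearman's rho between fold enrichment and the CpG ratio was 0.108 and Pearson's r was 0.137, over genes that share the same libraries. Between fold enrichment and the local background, the values were 0.409 and 0.275, and the background enters the fold enrichment itself. The 3 genes on chromosome 8, Cox4i1, Ndufa13 and Ndufb7, had a median background of 6.50 fragments, against 2.51 for the 52 others with a peak. Their median fold enrichment was 6.04, against 9.61. Ndufb7 had the most fragments of all 55 genes, 114 (94.0 to 137), with a background of 6.50 and a fold enrichment of 15.3. The part of the background in these values was not tested.

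**Figure D2:**
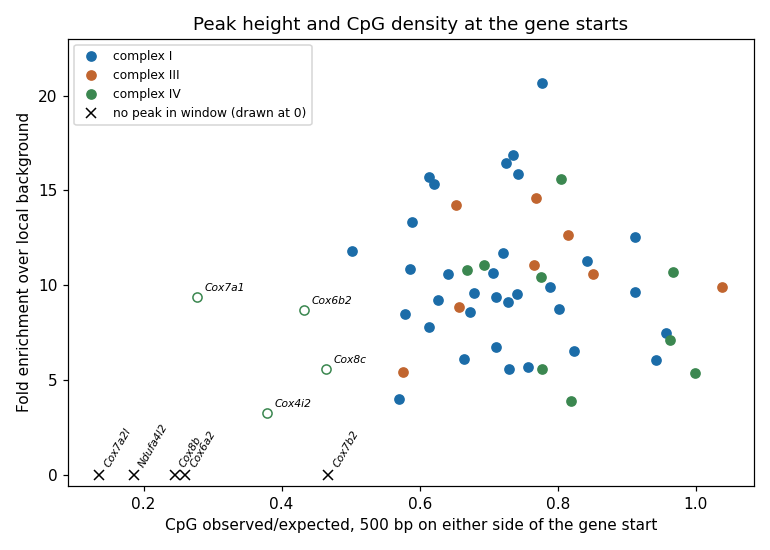
Fold enrichment of the peak (y axis) against the observed/expected CpG ratio within 500 bp of the gene start (x axis), with points for single genes. Open points are tissue-restricted isoforms and crosses, drawn at 0, are the 5 genes without a peak. All 50 genes with a ratio of at least 0.5 have a peak, at any height between 3.87 and 20.7.

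Most summits lay close to the annotated start. The start was inside the peak for 52 of the 55 genes, and Cox4i2 and Ndufa5 were among the exceptions. The median summit was 16 bp downstream of the start, against 32 bp for all starts with a peak, and the median distance without regard to side was 86 bp, against 132 bp. The summit was within 150 bp of the start for 43 of 55 genes (78.2%), against 56.1% of all starts with a peak. The median peak was 920 bp wide, against 1044 bp. These values describe where the openings were and were not put to a test, since 1 merged list gives no replicates.

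**Figure D3:**
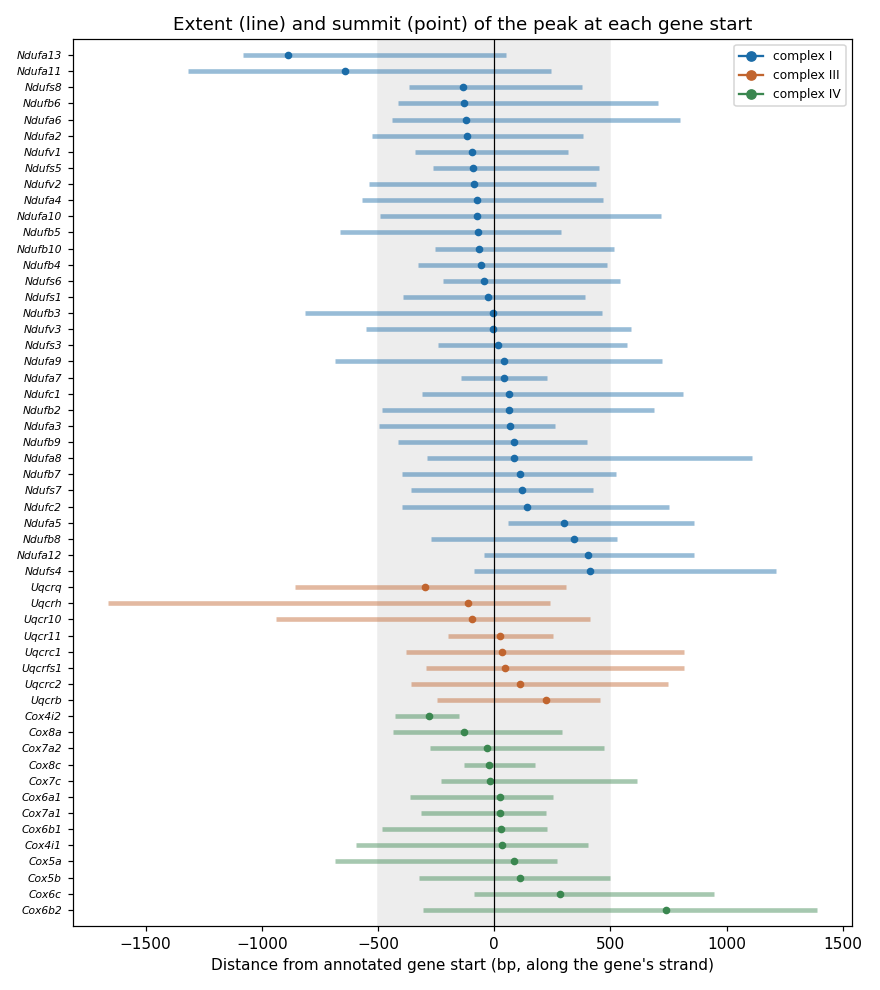
Extent (line) and summit (point) of the peak of 54 of the 55 genes, as distance from the annotated gene start in bp along the gene's strand (x axis), coloured by complex. The grey band is the 500 bp window on either side. Most summits sit within 150 bp of 0, and those of Ndufa13, Ndufa11 and Cox6b2 lie outside the band.

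Summits far from the start were found at few genes. Ndufa13, a membrane-arm subunit, had its summit 889 bp upstream, where the start of Yjefn3 was the nearest gene start at 735 bp. Ndufa11 had its summit 642 bp upstream. Ndufs4, an accessory subunit of the NADH-binding module, and Ndufa12 had theirs 414 and 404 bp downstream. For Ndufa12 the RefSeq start is 315 bp downstream of the GENCODE gene start, and the summit was 89 bp from it. Ndufa5 had its summit 301 bp downstream, in a peak that began 61 bp after the start. Its nearest RefSeq start is 323 bp downstream of the GENCODE gene start, and the summit was 22 bp from it. Over the 44 genes with a peak that were in the RefSeq table, the median distance to the summit was 79.5 bp from the GENCODE start and 99.0 bp from the RefSeq start, and the summit was nearer to the GENCODE start in 20, to the RefSeq start in 16 and equally near in 8.

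Several of these genes share a promoter region with a neighbour. A protein-coding gene on the opposite strand started within 1000 bp upstream of 12 of the 60 genes (20%), against 6.97% of all protein-coding starts. Of these, 8 belonged to complex I, 3 to complex III and 1 to complex IV, and all 12 had a peak. Their median fold enrichment was 10.8, against 9.54 for the 43 genes with a peak and no such neighbour. The closest pair was Ndufa7 with Rps28, a ribosomal protein gene, 10 bp apart, followed by Ndufb9 with Tatdn1 at 18 bp, Ndufa8 with Morn5 at 52 bp and Ndufb3 with Fam126b at 61 bp. The other pairs were Ndufa2 with Ik (99 bp), Ndufa5 with Asb15 (131 bp), Ndufv3 with Wdr4 (135 bp), Cox4i1 with Gm27021 (143 bp), Uqcrq with Gdf9 (192 bp), Uqcrh with Lrrc41 (198 bp), Ndufa4 with Phf14 (312 bp) and Uqcr10 with Zmat5 (336 bp).

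In 11 of the 12 pairs 1 peak covered both starts. The exception was Ndufa5, whose peak held neither the gene start used here nor the start of Asb15. Other annotated Ndufa5 starts, 323, 443 and 487 bp downstream of that gene start, lay inside the peak. The Cox4i1 peak also covered the start of Emc8. The peaks of Ndufs1, Ndufs3 and Ndufs6 covered the starts of the overlapping opposite-strand genes Eef1b2, Kbtbd4 and Mrpl36. At 3 pairs the summit was nearer to the neighbour's start, namely 18 bp from Ik at Ndufa2, 84 bp from Lrrc41 at Uqcrh and 108 bp from Gdf9 at Uqcrq. ATAC-seq fragments carry no strand, so the opening at a shared promoter cannot be divided between both genes.

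The window of 500 bp on either side of each start was searched on both strands for the letters of 7 motifs, the 5 above with NF-Y (CCAAT) and the TATA box (TATAAA). NRF1 letters were in the windows of 15 genes (25%), against 12.9% of all protein-coding starts and 18.9% of those with a peak. ETS letters were in 9 (15%), against 7.26% and 10.3%. YY1 letters were in 10 (16.7%), against 3.60% and 5.17%, and ERR letters in 4 (6.67%), against 1.84% and 1.63%. SP1 letters were in 42 (70.0%), against 61.4% and 84.0%, and those of NF-Y in 31 (51.7%), against 70.3% and 66.7%. TATA letters were in 19 (31.7%), against 32.2% and 21.3%. These shares are over all 60 genes, also those without a peak. Over the 55 genes with a peak, the shares were 27.3% for NRF1, 16.4% for ETS, 18.2% for YY1 and 7.27% for ERR. For SP1, NF-Y and TATA they were 72.7%, 49.1% and 27.3%. Of the 236 matches in all, 1 pair of different motifs overlapped, ERR with NF-Y at Cox6c. Thus the letters of NRF1, ETS, YY1 and ERR were more frequent, and those of NF-Y less frequent, than in both sets of starts. SP1 letters were more frequent than in all starts but less frequent than in starts with a peak. TATA letters were near the share of all starts and above that of starts with a peak. No test was made of these differences.

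**Figure D4:**
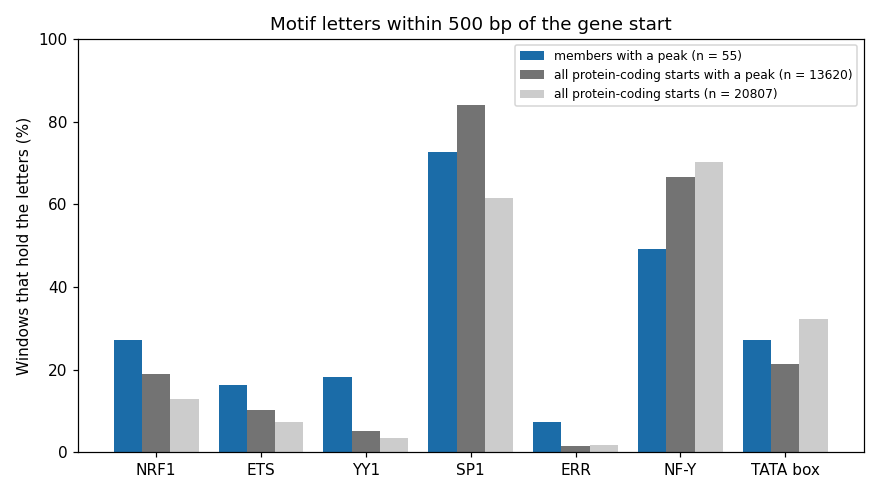
Share of gene starts with, in the 500 bp on either side, the letters of each motif on any strand (y axis, %), for the 55 genes with a peak, all protein-coding starts with a peak (13620) and all protein-coding starts (20807). The bars of the 55 genes exceed both others for NRF1, ETS, YY1 and ERR and are below both for NF-Y.

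At the genes with a peak, most matches began inside it. This held for 25 of 26 NRF1 matches, 9 of 10 ETS matches, all 11 YY1 matches, 4 of 5 ERR matches, 82 of 90 SP1 matches, 43 of 56 NF-Y matches and 11 of 21 TATA matches. The median peak of these genes was 920 bp wide, so peaks took up much of the 500 bp searched on either side. A match could thus often begin inside a peak wherever it lay. Neither the share of the windows covered by peaks nor the share of matches inside peaks at other starts was computed. The 4 genes with ERR letters were Ndufa2, Ndufb4, Ndufv2 and Cox6c, and no ERR match was within 150 bp of the start. NRF1 letters were at Ndufa5, Ndufa6, Ndufa8, Ndufa11, Ndufb4, Ndufb7, Ndufb10, Ndufs5, Ndufs6, Ndufs7, Ndufs8, Uqcr11, Uqcrc1, Cox6a1 and Cox6c. Overlapping matches of the same motif were counted separately, as for NRF1 letters on both strands at Ndufa11, Ndufs8, Uqcrc1 and Cox6a1. ETS letters were at Ndufa3, Ndufs1, Ndufs3, Uqcr11, Uqcrh, Uqcrq, Cox5b, Cox6b1 and Cox8a.

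The YY1 letters AAGATGGCG contain ATG, and at 8 of the 10 genes that ATG was the annotated start codon, against 36.8% (276 of 749) of all protein-coding starts whose window held the letters. The 8 genes were Ndufa2, Ndufa6, Ndufa9, Ndufc1, Ndufs4, Ndufs6, Ndufs7 and Uqcrc1. The letters were on the gene's own strand in each, since only such matches were compared with start codons. The 29 bases around the match are shown for 7 of them, with the YY1 letters in capitals (mm10, read along the gene), since they carry both the motif and the first codons.
Ndufa6: cttcctcggcAAGATGGCGgccgcggcca
Ndufa9: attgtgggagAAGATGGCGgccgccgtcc
Ndufc1: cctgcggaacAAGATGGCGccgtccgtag
Ndufs4: tgcctacaggAAGATGGCGgcggtctcaa
Ndufs6: ggtcaccggcAAGATGGCGgcggtgctga
Ndufs7: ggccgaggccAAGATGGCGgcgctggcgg
Uqcrc1: cggaagttagAAGATGGCGgcgtccgcag
These stretches lie at chr15:82354213-82354241, chr6:126849097-126849125, chr3:51408915-51408943, chr13:114388041-114388069, chr13:73328431-73328459, chr10:80249463-80249491 and chr9:108936706-108936734, with Ndufs7 and Uqcrc1 on the + strand and the others on the − strand. The matches began 91, 21, 55, 199, 93, 352 and 83 bp downstream of the gene starts. At these genes the letters from ATG on are therefore coding sequence, and the whole match lay inside the peak.

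Ndufs8 and Uqcrh held the YY1 letters on the opposite strand and upstream of the start. At Uqcrh there were 2 matches, at −343 and −297 bp from the start, on the far side of the Lrrc41 start, and the Uqcrh peak covered both. Neither match was compared with the start codon of Lrrc41. At Ndufs8 the match was at −295 bp. The stretches are shown along the strand that carries the letters, at chr4:116075396-116075424, chr4:116075350-116075378 and chr19:3913051-3913079, all on the + strand.
Uqcrh, first: gcacctccccAAGATGGCGgcgcccgagg
Uqcrh, second: tgacctcttcAAGATGGCGgcccgcgggt
Ndufs8: gaatactgcaAAGATGGCGacagcgtaca
The peaks of the 10 genes with these letters ranged from 6.08 (Ndufc1) to 12.6 (Uqcrh).

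Other genes of oxidative phosphorylation, by lists of names, also had peaks at most starts, where 65.5% of all protein-coding starts had one with a median of 8.41. All 4 subunit genes of complex II (succinate dehydrogenase) had a peak, with a median fold enrichment of 11.5, as did Cyc1, Cycs and Cyct (12.3). Of the 18 genes with names beginning Atp5, mostly subunits of the ATP synthase (complex V), 16 had a peak, with a median of 9.48. The exceptions were Atp5g1 and 1 of the 2 annotated genes named Atp5o, and the highest was Atp5b, the catalytic beta subunit, at 16.2 with 77 fragments. Of 39 assembly factor genes, 38 had a peak, with a median of 11.4. Ndufaf5, a complex I assembly factor, was the highest at 19.97 with 150 fragments, Uqcc2, of complex III assembly, the lowest at 3.57 with 7 fragments, and Cox19 had none.

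Sequence copies can blur single peaks, because reads that match several places are placed at 1 of them. A BLAST search took the 301 bp around the summit of the 55 genes with a peak and around the start of the 5 others. At 90% identity or more, it found no second site in the genome that matched 50% or more of any of these 60 stretches. Cox7a2l, the only gene outside the restricted list without a peak, had 733 shorter matches, the longest of 126 bp, and 56.7% of its 500 bp on either side was repeat-masked. Their part in the missing peak was not tested. The annotated protein-coding and RefSeq starts of Cox7a2l lay 3000 and 2997 bp downstream of this gene start, inside a peak of 15.1. Repeat-masked sequence took a median of 6.69% of all 60 windows, against 9.39% for all starts.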

How the data were processed

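The cells were 2 clones of EHMT2-dTAG mESCs, and each was given DMSO for 24 h before ATAC-seq. The authors trimmed reads with BBMap and, per the labels' processing notes, used STAR 2.7.10, Picard 2.26.0, SAMtools 1.14, bedtools 2.30.0 and MACS2 2.2.6 with mm10. They shifted fragments for the Tn5 cut and deposited 1 peak list for both clones merged. Its deposited fold enrichment is a ratio of summit pileup to local background, each plus 1. The p-value and q-value of each summit were deposited as −log10, and the lowest −log10 q-value was 1.30. The score the authors deposited, a multiple of −log10 p, was not used. Deposited summit offsets gave positions, counted here from 1.

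Gene starts came from GENCODE vM21 (mm10), an earlier release than the study used for RNA. The strongest overlapping peak within 500 bp of a start was taken. Fragment numbers at summits were solved from fold enrichment and p-value with the MACS2 formulas, and came out whole for 116778 of 116782 peaks (tolerance 0.001 in −log10 p). This was tested on simulated data. Promoters were matched by symbol in a RefSeq table (47 of 60 genes). Among those not in it were Ndufa2, Ndufa4l2, Ndufb9, Ndufs1, Uqcrb, Uqcrc2, Uqcrq, Cox4i1, Cox4i2, Cox6a2, Cox6c and Cox8c. Python 3.11.15, NumPy 2.4.6, pandas 2.3.3, SciPy 1.17.1, BLAST 2.17.0 and matplotlib 3.10.9 were used.

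With 1 merged list of 1 condition no test over samples could be made, so counts and medians are given beside those of all protein-coding starts, which can share peaks. The genes, lists and motifs were chosen with earlier results of these data known. Genes were named if they had no peak, were among the 3 highest or lowest of a complex, were core subunits, isoforms or their partners, or shared a peak with an opposite-strand start. The values of 1 gene are not reported here, although it stays in counts and medians. Others were named for a far summit, an extreme value, a motif or a neighbour after the values were seen, as were the label check genes. Alternatives were a stricter q-value, summits inside the window, windows of 250 and 1000 bp, other annotated starts, leaving out chromosome 8, the peak with the nearest summit and, added after seeing the data, RefSeq starts.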

Additional observations from a re-analysis of the deposited data

How the results depend on the processing

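Of 37 other settings tried for the counts and medians, 35 left the value within 1.5 times (counts) or within the 95% interval of the median, as did the 7 with RefSeq starts. The stricter −log10 q-value of at least 10 moved the complex IV genes with a peak from 13 to 8 and the tissue-restricted forms from 4 to 2, because it removes the low peaks of Cox4i1, Cox4i2, Cox6b1, Cox6c and Cox8c. Asking for the summit in the window removed Cox6b2, Ndufa11 and Ndufa13, a window of 250 bp removed 1 gene, and any transcript or RefSeq start added Cox7a2l. The median fold enrichment stayed between 9.60 and 10.6. The median summit position ranged from −23.5 bp (RefSeq starts) to 19.5 bp, so its side depends on the start used. No paired analysis was possible because the deposited list combines the clones of the only group, and for the same reason no replicate could be left out. Depth limits the low peaks most: at 6 to 11 fragments the counting interval spans more than 3 times, and a start without a peak means only that none was detectable at this depth.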
